A study of Rattus norvegicus with 4 samples.

Results

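The transforming growth factor beta (TGF-beta) genes described here are 10 transcripts chosen by symbol: the ligand isoforms Tgfb1, Tgfb2 and Tgfb3, the receptors Tgfbr1, Tgfbr2 and Tgfbr3, the signal Smads Smad2 and Smad3, and the inhibitory Smads Smad6 and Smad7. Each symbol was found on a single row, so all 10 were measured among the 13261 genes used. They were read in 4 glomerular samples from male Wistar rats with a labelled body weight of about 150 to 175 g, all injected intravenously with Adriamycin (ADR, doxorubicin), a drug that injures podocytes and causes heavy proteinuria in rats. ADR is the only group analysed here, so each result is a level or a difference between samples, and no untreated background was measured in the same way. The labels name 2 harvest days for the study without assigning these samples to either. They do not state that each sample is a separate rat, so p-values measure only the spread between these samples, which may be partly technical. Glomeruli were isolated with sieves and measured in bulk, and fewer cells of a type cannot be told apart from less RNA per cell.

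TGF-beta is secreted as a latent dimer that is held in the matrix until proteases, integrins or thrombospondin release it. The active ligand binds the type II receptor, which phosphorylates the type I receptor, which in turn phosphorylates Smad2 and Smad3. These join Smad4 and enter the nucleus, where they act on matrix and cytoskeletal genes and on Smad7, an inhibitor that feeds back on the receptor. In the glomerulus the pathway is best known for driving mesangial matrix and for podocyte loss in scarring disease.

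Read depth was close between samples, at 13566962 to 16207027 reads in the genes used. The 10 transcripts had between 322 and 11743 reads in any sample. All 6 podocyte and all 6 mesangial marker genes were detected in each sample, as were all 5 endothelial markers with a value and all 6 proximal tubule markers, which are not glomerular. The marker lists were not even between samples. Summed podocyte markers ran from 4967 CPM (reads scaled so that every sample has the same total) in replicate 2 to 8601 CPM in replicate 1, and summed proximal tubule markers from 2372 CPM in replicate 3 to 4836 CPM in replicate 1. Endothelial markers ranged less, from 4284 to 5521 CPM.

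All 10 transcripts were expressed, and in 9 of them the highest sample was at most 1.56 times the lowest. The exception was Smad6, which was 2.34 times as high in replicate 3 as in replicate 1. The 10 genes differed between samples by more than the counting of reads allows in 10 of 10 cases (chi-square test of reads against sample totals, adjusted over all genes by Benjamini-Hochberg, threshold 0.05). Of all genes, 69.5% did so, and among the 6988 genes with at least as many reads as the lowest of the 10 the share was 82.4%, so the count lies near what genes of this depth showed. Their median SD was 0.19 on the log2 CPM scale, beside 0.18 for all genes and 0.15 for the 6988 genes. Levels are in CPM, which is not corrected for transcript length, and levels of different genes are therefore not ranked against each other.

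**Figure D1:**
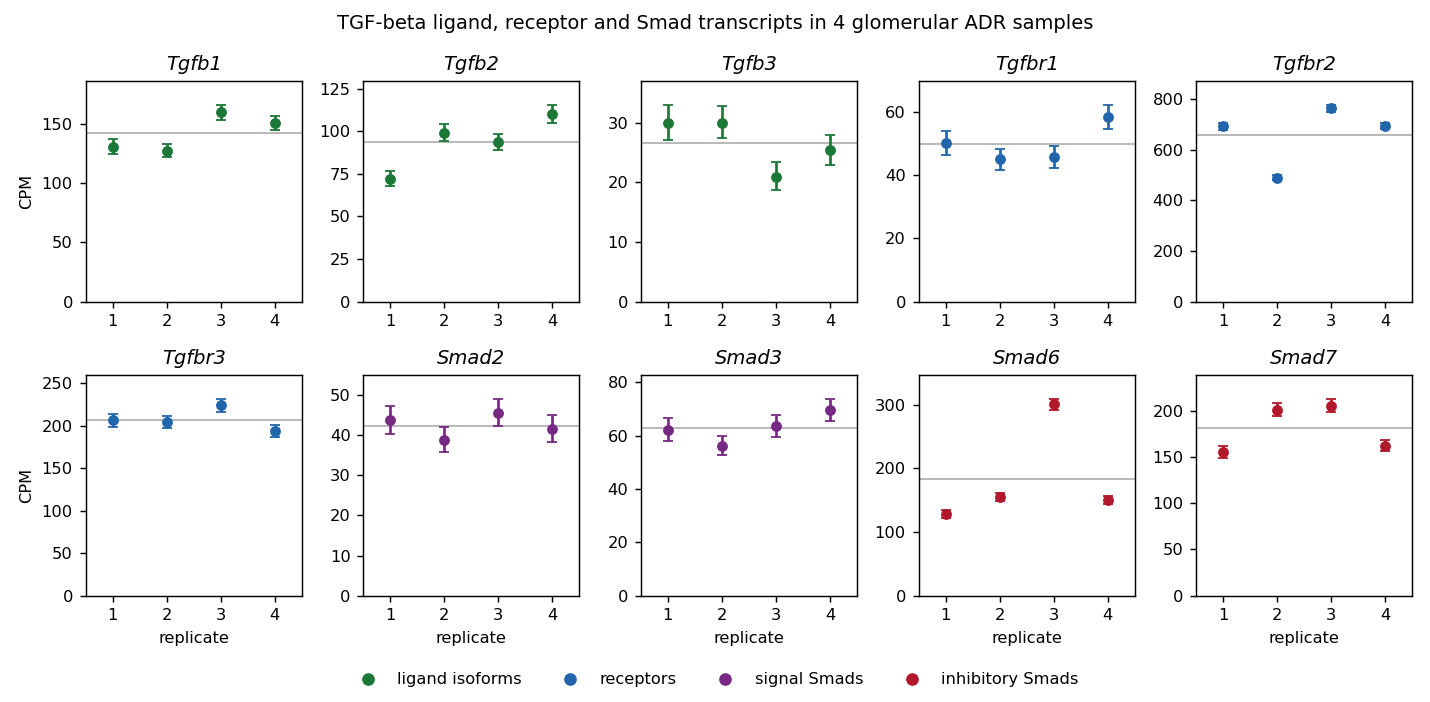
Level of each TGF-beta gene in CPM (linear axis from 0) in replicates 1 to 4, with points for samples, bars for exact 95% Poisson intervals of the read count and a grey line for the mean. Smad6 in replicate 3, at 300.7 CPM, stands above the other three samples, which lie between 129 and 155 CPM, and Tgfbr2 is lowest in replicate 2.

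Of the ligands, Tgfb1 (ENSRNOG00000020652), the isoform most tied to fibrosis, was at 131, 128, 160.1 and 151 CPM in replicates 1 to 4, a mean of 142 ± 15.7 CPM (SD, n = 4). Replicates 3 and 4 were both above replicates 1 and 2, and the 95% Poisson intervals of the upper and the lower pair did not overlap. These intervals cover counting error only. Tgfb2 (ENSRNOG00000002418), the isoform that relies most on Tgfbr3 to reach its receptor, was at 72.2, 99.1, 93.5 and 110.2 CPM, a mean of 93.7 ± 15.98 CPM (SD, n = 4). Replicate 1 was the low sample, and without it the highest was 1.18 times the lowest in place of 1.53 times. Tgfb3 (ENSRNOG00000009867) was at 29.998, 30.05, 21.0 and 25.4 CPM, a mean of 26.6 ± 4.34 CPM (SD, n = 4). Its order ran against that of Tgfb1, with replicate 3 lowest for Tgfb3 and highest for Tgfb1.

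The ratio of 2 transcripts within a sample does not depend on how samples were scaled, so the isoforms were also set against each other in each sample. The log2 difference Tgfb3 minus Tgfb1 was -2.12, -2.08, -2.93 and -2.57 in replicates 1 to 4, with an SD of 0.40. That SD is larger than the SD of either gene alone, 0.25 for Tgfb3 and 0.16 for Tgfb1. Across samples the share of Tgfb3 relative to Tgfb1 varied 1.80-fold. The difference Tgfb2 minus Tgfb1 was -0.86, -0.36, -0.78 and -0.45, with an SD of 0.24, lower in replicates 1 and 3 than in replicates 2 and 4.

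The receptor Tgfbr2 (ENSRNOG00000013265), the type II kinase that binds the ligand, was at 694, 490.1, 765 and 695 CPM, a mean of 661 ± 119 CPM (SD, n = 4). Replicate 2 was low, with 7944 reads against 9410 to 11743 in the other samples, and its interval of 479 to 501 CPM lay apart from all of theirs. Without replicate 2 the SD fell from 0.28 to 0.08 on the log2 scale. Replicate 2 was also the sample with the lowest summed podocyte markers, at 4967 CPM against 6529 to 8601 CPM. As a mean of log2 values the mesangial markers were lowest there too, 0.18 below their mean, although their sum was lowest in replicate 1. Among them Pdgfrb was at 454, 308, 505 and 512 CPM in replicates 1 to 4, while Des and Acta2 were highest in replicate 2. Replicate 2 had the highest share of reads in mitochondrial coding genes as well, 12.5% against 7.46% to 9.34%. With those genes out of the totals, Tgfbr2 was still lowest in replicate 2. The part of the podocyte or mesangial list in the Tgfbr2 value was not tested.

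Tgfbr1 (ENSRNOG00000007036), the type I kinase that phosphorylates Smad2 and Smad3, was at 50.1, 45.0, 45.7 and 58.4 CPM, a mean of 49.8 ± 6.17 CPM (SD, n = 4). Replicate 4 was the high sample, and the other three had overlapping intervals. Its departure from counting noise rested on that sample: the adjusted p of the chi-square test was 3.12e-07 with all samples and 0.133 without replicate 4. Tgfbr3 (ENSRNOG00000002093), also called betaglycan, a co-receptor that presents ligand to the kinases, was at 206, 204, 224 and 193 CPM, a mean of 207 ± 12.8 CPM (SD, n = 4). It had the smallest SD of the 10 genes, 0.09 on the log2 scale, which placed it at percentile 14.8 of all genes. Without replicate 3 it no longer differed beyond counting noise (adjusted p = 0.0509, chi-square test).

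With the deposited scaling both kinase receptors were lowest in replicate 2, while under the other 3 scalings tried Tgfbr1 was lowest in replicate 3. Their ratio does not depend on the scaling. The difference Tgfbr2 minus Tgfbr1 was 3.79, 3.44, 4.06 and 3.57 on the log2 CPM scale in replicates 1 to 4, a range of 1.54-fold in their ratio. Replicate 3 had the largest excess of Tgfbr2 and replicate 2 the smallest, and the sign is not corrected for length.

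To show what lies before these genes, promoter sequence was taken from RefSeq on build GRCr8, which is not the build of the expression table. Windows were found for 9 of the 10 genes, all but Smad6, and the 250 bases before the annotated start were searched on both strands. The TATA box was searched as TATAAA, the GC box as GGGCGG and the CCAAT box by its own letters. An AP-1 site was searched as TGACTCA, the Smad palindrome as GTCTAGAC and the CAGA box as CAGACA, and no base lay in more than 1 match. The kinase receptors are shown because they form the signalling complex and because both windows hold CCAAT and GC boxes, which stand before many genes with no TATA box. Capitals mark the CCAAT and GC boxes on either strand, and 2 adjoining matches can form 1 run. The Tgfbr1 window is chr5:66449148-66449397 (plus strand) and the Tgfbr2 window chr8:124761470-124761719 (minus strand), each written 5′ to 3′ along its gene.
Tgfbr1: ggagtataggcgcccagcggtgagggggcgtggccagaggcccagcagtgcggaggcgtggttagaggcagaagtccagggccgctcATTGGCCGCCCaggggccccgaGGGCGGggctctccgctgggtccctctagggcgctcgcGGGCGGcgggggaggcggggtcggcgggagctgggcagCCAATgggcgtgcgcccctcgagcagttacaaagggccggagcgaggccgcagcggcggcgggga
Tgfbr2: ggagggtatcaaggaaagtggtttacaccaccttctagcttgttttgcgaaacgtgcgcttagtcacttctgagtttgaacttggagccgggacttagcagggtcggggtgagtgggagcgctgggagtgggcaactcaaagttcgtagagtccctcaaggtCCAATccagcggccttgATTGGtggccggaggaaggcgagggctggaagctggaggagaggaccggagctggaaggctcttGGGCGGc

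The Tgfbr1 window holds 3 GC boxes and 2 CCAAT boxes, with 75.6% G and C. The Tgfbr2 window holds 1 GC box and 2 CCAAT boxes, with 58% G and C. Of the 33469 promoter windows of this length, 30.5% hold a GC box and 34.0% a CCAAT box, and the median content of G and C is 51.2%. A GC box was also found for Tgfbr3, Smad2, Smad3 and Smad7, and a CCAAT box for Smad2. The windows of Tgfb1, Tgfb2 and Tgfb3, with 60%, 61.6% and 48.8% G and C, held none of the 6 motifs. The TATA box, AP-1 site, Smad palindrome and CAGA box were found in no window of the 9 genes, and are held by 12.9%, 4.05%, 0.173% and 17.2% of all windows. A match is a run of letters and was not tested as a binding site.

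The signal Smads were among the most even of the 10 genes. Smad2 (ENSRNOG00000018140), a receptor-activated Smad that needs partners to bind DNA, was at 43.6, 38.7, 45.5 and 41.5 CPM, a mean of 42.4 ± 2.91 CPM (SD, n = 4). Only replicates 2 and 3 had intervals that did not overlap. Its difference from counting noise was weak, with an adjusted p of 0.0356 (chi-square test). That p rose to 0.0945 when samples were scaled by trimmed-mean factors and to 0.0842 by median-of-ratios factors. It was 0.118 with mitochondrial genes out of the totals. It was 0.31 without replicate 2 and 0.158 without replicate 3. Smad3 (ENSRNOG00000008620), which binds DNA itself and carries much of the fibrotic response, was at 62.3, 56.3, 63.5 and 69.5 CPM, a mean of 62.9 ± 5.44 CPM (SD, n = 4). Its adjusted p of 0.000136 became 0.0556 without replicate 2 (chi-square test). The difference Smad3 minus Smad2 was the steadiest of those examined, at 0.51, 0.54, 0.48 and 0.74 on the log2 CPM scale, with an SD of 0.12.

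The inhibitory Smads differed more. Smad6 (ENSRNOG00000009173), which mainly restrains signalling by bone morphogenetic proteins (BMPs), had 1746, 2517, 4616 and 2296 reads in replicates 1 to 4. In CPM these were 129, 155, 300.7 and 151, a mean of 184 ± 78.8 CPM (SD, n = 4). Replicate 3 lay far above the other samples, of which the largest was replicate 2. Replicates 2 and 4 had overlapping intervals, and replicate 1 was lowest. Smad6 had an SD of 0.54 on the log2 scale, at percentile 95.2 of all genes, and a coefficient of variation of 42.8% beyond counting error. Without replicate 3 its SD was 0.15 and its highest sample 1.21 times its lowest.

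Smad7 (ENSRNOG00000018359), which blocks the type I receptor, was at 156, 201, 206 and 162 CPM, a mean of 181 ± 25.9 CPM (SD, n = 4). Replicates 2 and 3 were both above replicates 1 and 4, with no overlap of intervals between the pairs. The difference Smad7 minus Smad6 was 0.27, 0.37, -0.55 and 0.11 on the log2 CPM scale, with an SD of 0.41, the largest of the 5 differences examined. Replicate 3 was thus high for both inhibitory Smads, but by 0.79 above the mean for Smad6 and 0.19 for Smad7.

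**Figure D2:**
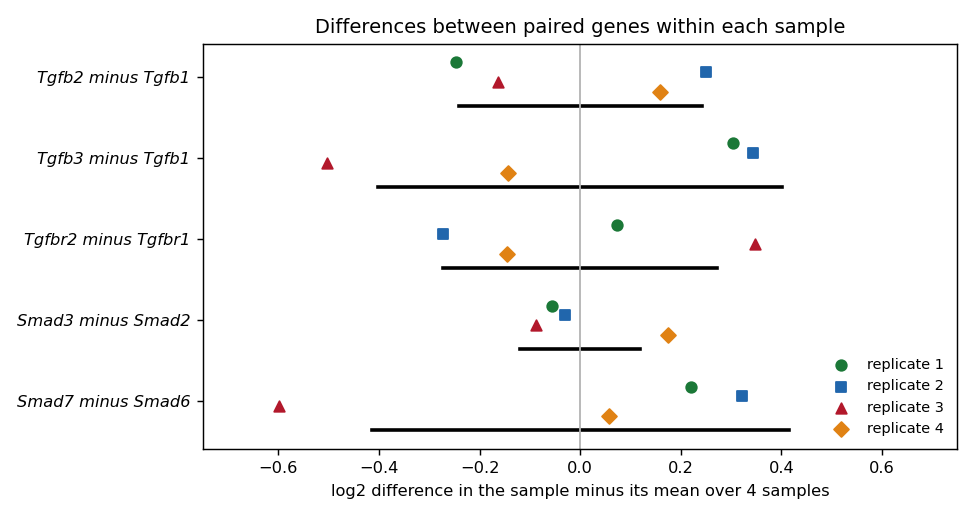
Log2 difference between 2 genes in each sample minus its mean over 4 samples, with symbols for replicates 1 to 4 and a black bar for 1 SD on either side of the mean. Smad7 minus Smad6 in replicate 3, 0.60 below its mean, is the widest departure, while Smad3 minus Smad2 has an SD of 0.12.

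The spread of each gene was then set against that of genes at a similar level with the variance trend of limma on log2(CPM + 1). It called 0 of the 10, and 0 of 13261 genes, or 0%, at an adjusted p under 0.05. At an unadjusted p under 0.05 it passed 725 genes, or 5.47%, and 1 of the 10, Smad6 (unadjusted p = 0.0173, adjusted p = 0.912). The adjusted p of Smad6 in this test lay between 0.915 and 0.994 under the other scalings, the filter on reads and the fits without a sample. A second test, which held the dispersion trend fixed, called 998 genes, or 7.53%, and again Smad6 alone of the 10 (adjusted p = 4.71e-06). That call was lost without replicate 3 (adjusted p = 0.975). The other 9 genes had adjusted p-values of at least 0.405 there.

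**Figure D3:**
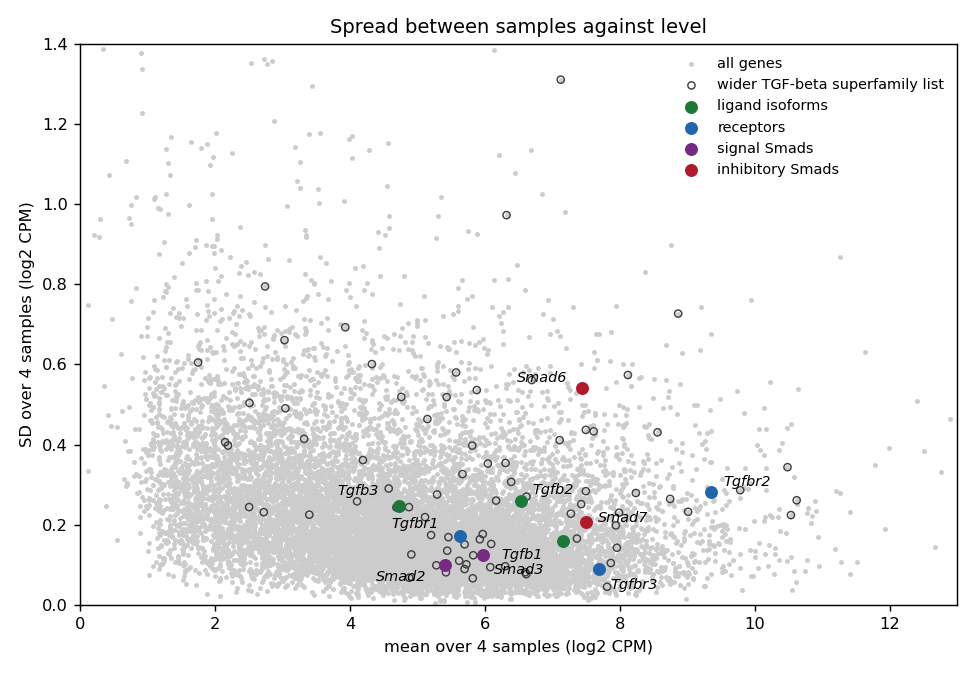
SD over 4 samples against mean over 4 samples, both in log2 CPM, for all genes (grey dots), the wider TGF-beta superfamily list (open circles) and the 10 TGF-beta genes (filled, coloured by role), with 25 genes outside the axes. Smad6, with an SD of 0.54, stands above the other 9, which lie between 0.09 and 0.28.

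The samples took different places for different genes. With the deposited scaling, 6 of the 10 genes were highest in replicate 3, where 29.6% of all genes were highest, and 0 in replicate 1, where 27.7% were. Under each of the other 3 scalings (trimmed-mean, median-of-ratios, and totals lacking mitochondrial genes) the number was 5, since Smad7 was then highest in replicate 2. The share of all genes was then 24.2%, 24.1% and 28.0%. Replicate 2 was lowest for 5 of the 10, beside 31.5% of all genes, and for 4, 4 and 3 under those scalings, beside 27.3%, 27.6% and 22.9%. Replicate 1 was lowest for 3 of the 10, beside 35% of all genes. The highest sample was at least 1.5 times the lowest for Tgfb2, Tgfbr2 and Smad6, beside 30.3% of all genes. With trimmed-mean or median-of-ratios factors Tgfb2 fell below that ratio.

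Beside the high Smad6 of replicate 3, other features of that sample are given as measured. Its summed endothelial markers were the highest, at 5521 CPM against 4284 to 4659 CPM, and its erythroid markers were at 1337 CPM against 719.9 to 929 CPM. Its proximal tubule markers were the lowest, at 2372 CPM against 3484 to 4836 CPM. The sum of the 2 fibroblast markers with a value was highest there, at 529 CPM against 288 to 459 CPM. Col1a1 made up 516 CPM of that sum, while Pdgfra was highest in replicate 2. The sum of the 4 parietal epithelium markers was lowest in replicate 3, at 401 CPM against 435 to 553 CPM. Cd9 made up 363 CPM of it, and Pax2 was lowest in replicate 4. Summed immune markers, of which Cd74 made up the largest part, were at 1279 CPM against 1024 to 1308 CPM. As a mean of log2 values, which weights the 6 immune genes equally, they were highest in replicate 3, by 0.30 above the mean of the samples. Ptprc (CD45, on all leukocytes) was at 108 CPM there against 48.4 to 70.8 CPM, and Csf1r and Cd3e were also highest in that sample. Cd74 and Cd68 were highest in replicate 2 and Lyz2 in replicate 4. The share of reads in mitochondrial coding genes was 9.34%, within the range of the others. The part of any of these in the Smad6 value was not tested.

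**Figure D4:**
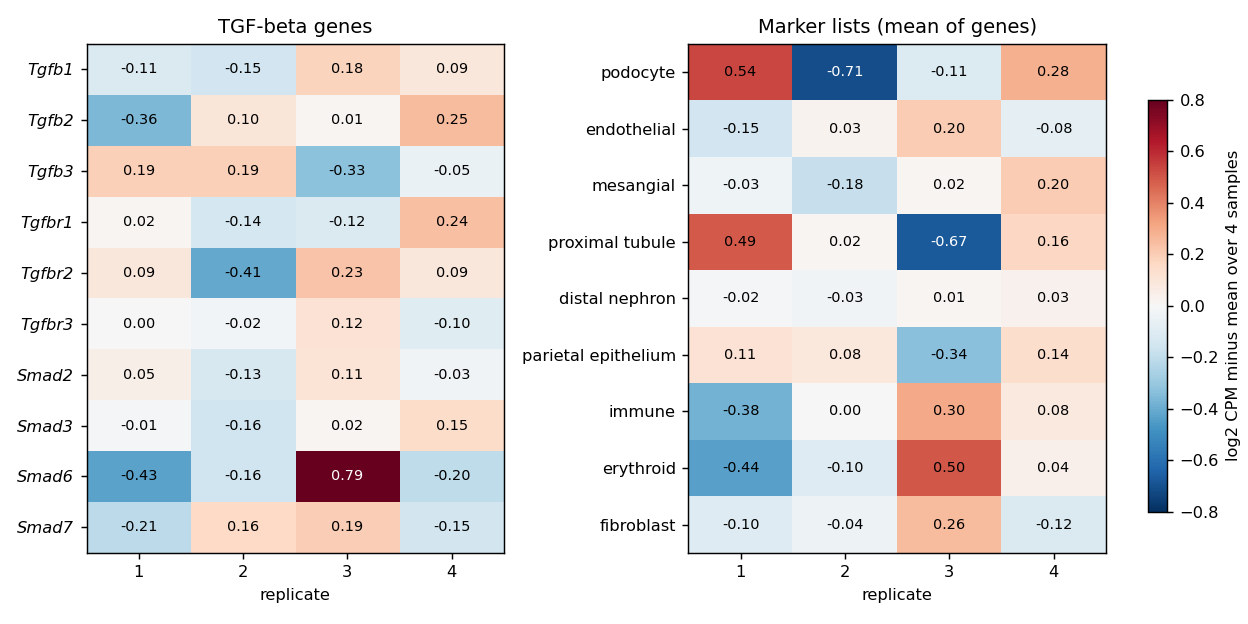
Log2 CPM minus the mean over 4 samples for each TGF-beta gene (left) and for the mean of each marker gene list (right), by replicate, with red above and blue below the mean. Smad6 in replicate 3, at 0.79, sits beside proximal tubule markers of -0.67 in that sample. Tgfbr2 in replicate 2, at -0.41, sits beside podocyte markers of -0.71 and mesangial markers of -0.18.

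The genes of the whole table whose pattern over the 4 samples lay nearest to that of the 2 most uneven genes were found by root mean square difference of centred log2 values. For Smad6 the nearest was C3, the central complement component, with 230, 323, 547 and 303 reads and a distance of 0.06. Prkcq, Gfra4, Sec31b and Treml4 followed at 0.11 to 0.12, with at most 147 reads in any sample. For Tgfbr2 the nearest 5 were AABR07051787.1, Ubash3b, Mylip, Dnajb14 and Sbspon, all at a distance of 0.02. Mylip, for example, had 1349, 1118, 1657 and 1466 reads. Over 13260 genes searched and 4 samples, these distances are descriptions only.

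The wider superfamily was then examined through 84 further genes, of which 77 had a value and 7 were not analysed here. Beyond counting noise differed 71 of the 77, beside 69.5% of all genes and 82.4% of the 6988 genes of greater depth named above. The exceptions were Acvr1b, Acvr2b, Map3k7, Tab1, Tgfb1i1 and Tgif2. That test depends on depth, and the list had a median level of 5.82 log2 CPM against 4.85 for all genes. The medians of its classes were also above that of all genes, which limits the comparison of each class with 69.5%. The test on limma's trend called 0 of the 77, beside 0% of all genes, with 18 at an unadjusted p under 0.05, beside 5.47%. At the fixed dispersion trend 18 were called, beside 7.53% of all genes. Without replicate 2 it called 6 of the 77 and 711 of 13261 genes. The median SD was 0.26 on the log2 CPM scale. Replicate 3 was highest for 24 of the 77, beside 29.6% of all genes. Replicate 2 was lowest for 32 and replicate 1 for 28, beside 31.5% and 35% of all genes.

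**Figure D5:**
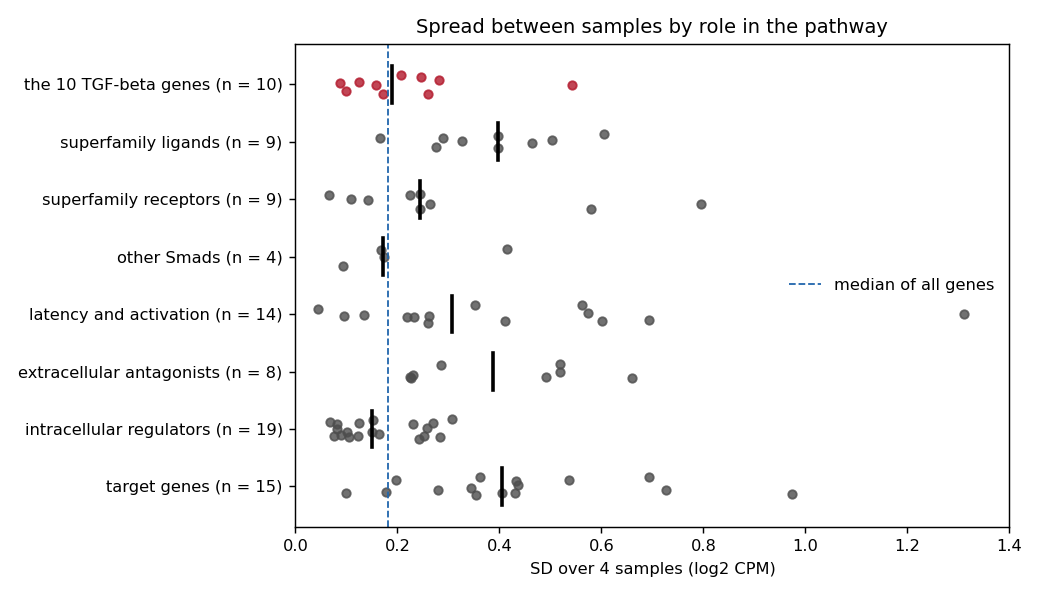
SD over 4 samples in log2 CPM of each gene (points) by role, with a black bar for the median of each class and a dashed line for the median of all genes, 0.18. Target genes, superfamily ligands and extracellular antagonists have medians of 0.41, 0.40 and 0.39, and intracellular regulators 0.15.

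Of the classes of the wider list, the intracellular regulators and the other Smads had the lowest median SD. The 19 regulators had a median SD of 0.15 and the fixed trend called 0 of them, beside 7.53% of all genes. Beyond counting noise were 16, beside 69.5% of all genes. Pmepa1, a TGF-beta-induced inhibitor of the signal Smads, was the most uneven, at 63.3, 96.4, 101 and 79.2 CPM. Bambi, a decoy receptor without a kinase, was at 229, 149, 159 and 194 CPM, and Ski, a nuclear corepressor of Smads, at 102, 84.1, 125 and 85.2 CPM. Fkbp1a, which keeps the type I receptor inactive without ligand, was at 225, 229, 259 and 220.0 CPM, and the corepressor Tgif2 at 5.38, 7.40, 6.12 and 7.54 CPM. The other Smads had a median SD of 0.17. Smad4, the partner shared by all signal Smads, was at 68.8, 61.2, 70.3 and 69.9 CPM. The BMP-activated Smad1 and Smad5 were at 44.1 ± 5.34 and 36.9 ± 4.43 CPM (SD, n = 4). Smad9, of the same branch, was at 8.25, 8.21, 15.1 and 9.51 CPM, highest in replicate 3.

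Ligands and antagonists outside the cell were less even. Among 9 superfamily ligands with a value, 9 differed beyond counting noise and the fixed trend called 2, Bmp4 and Bmp7, beside 69.5% and 7.53% of all genes. Bmp4, which signals through the branch that Smad6 restrains, was at 22.9, 34.1, 48.4 and 41.1 CPM, highest in replicate 3, while Bmp7 was lowest there, at 76.7, 46.5, 42.7 and 64.6 CPM. Bmp6 was at 163, 141, 171 and 185 CPM. The activin subunits Inhba and Inhbb had few reads, at 3.52 ± 1.23 and 5.94 ± 2.30 CPM (SD, n = 4). Of 8 antagonists with a value, 2 were called at the fixed trend, Nog (noggin) and Chrd (chordin), which bind BMPs, beside 7.53% of all genes. Nog was at 21.7, 20.2, 44.8 and 27.1 CPM, highest in replicate 3. Chrd was at 27.6, 64.9, 39.6 and 48.5 CPM, highest in replicate 2. Fst (follistatin), a binder of activins, was at 4.13, 10.7, 8.86 and 11.1 CPM, and Bgn (biglycan), a matrix proteoglycan that binds TGF-beta, at 892 ± 171 CPM.

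Receptors of the wider family ranged in SD from 0.07 for Acvr1b to 0.79 for Bmpr1b on the log2 CPM scale. Eng (endoglin), the endothelial co-receptor, was at 1186, 1593, 1689 and 1507 CPM, and Acvrl1 (ALK1), its endothelial type I partner, at 344, 476, 517 and 397 CPM. Both were lowest in replicate 1 and highest in replicate 3, as were the summed endothelial markers. Bmpr1a, a type I receptor for BMPs, was at 67.4, 28.6, 41.4 and 63.6 CPM, and Bmpr1b at 11.5, 3.21, 5.99 and 8.79 CPM. These were the 2 receptors of 9 called at the fixed trend, beside 7.53% of all genes. Both had the same order as the podocyte markers, highest in replicate 1 and lowest in replicate 2, and the part of the podocyte list in them was not tested. Acvr2b, an activin type II receptor, was at 5.69 ± 0.939 CPM.

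The genes listed under latency and activation of TGF-beta differed in 14 of 14 cases beyond counting noise, and 7 were called at the fixed trend, beside 69.5% and 7.53% of all genes. These were Ltbp2, Lrrc32, Thbs1, Itgav, Itgb8, Mmp2 and Mmp9. Thbs1, Itgav, Mmp2 and Mmp9 were lowest in replicate 2, as the podocyte markers were, and Itgav had the podocyte order over all samples. The mesangial markers Pdgfrb, Itga8, Gata3 and Cspg4 were also lowest in replicate 2, while Des and Acta2 were highest there. Mmp2 had the order of Pdgfrb. The part of the podocyte or mesangial list in these values was not tested. Mmp9, a gelatinase that can release ligand, was at 366, 40.9, 172 and 146 CPM, low in replicate 2. Itgb8, the integrin subunit that pairs with Itgav to activate latent ligand, was at 34.9, 15.9, 13.5 and 21.2 CPM. Ltbp2, a latent-binding family protein, was at 10.5, 30.4, 11.5 and 14.4 CPM, high in replicate 2. The abundant Itgb1 was at 1590.0 ± 279 CPM.

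Of the 15 target genes with a value, 14 differed beyond counting noise and 6 were called at the fixed trend, beside 69.5% and 7.53% of all genes. Among those called were Col3a1, Fn1 and Ltbp2, the last also listed among the latency genes. Col3a1, an interstitial collagen, was at 31.0, 93.8, 153 and 90.5 CPM. Fn1 (fibronectin) was at 222, 569, 534 and 692 CPM. Both were lowest in replicate 1, which was the lowest sample for 8 of the 15 targets, beside 35% of all genes. Ccn2, a matricellular growth factor, was instead lowest in replicate 2, at 1644, 1068, 1309 and 1817 CPM. Snai2, a transcription factor of mesenchymal change, was at 4.53 ± 1.33 CPM (SD, n = 4). Which of these genes responded to TGF-beta in these rats was not measured.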

How the data were processed

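Polyadenylated RNA of 4 glomerular ADR samples was read from the table that the authors deposited, which holds log2 values per gene and sample. HISAT2, Subread featureCounts, limma and the build Rnor_6.0 are listed in the submitters' processing notes; the use of strand and the filter on low genes are not given in the sources used here. Reads of overlapping genes on opposite strands can therefore not be told apart. In each deposited column, 2 to the value was a whole number of reads plus 0.5 times a constant, within 0.01 reads for 100% of values, so the values are log2 CPM and reads were recovered from them. Of 13265 rows, 4 with displaced values were left out. Columns of values without a sample numbered 0. The libraries ran over 2 lanes, which the table does not separate.

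Reads were tested against sample totals with a chi-square statistic on 3 degrees of freedom, and the residual variance of log2(CPM + 1) against limma's trend (limma 3.58.1, R 4.3.3). Both were fitted on all 13261 genes with Benjamini-Hochberg adjustment. As the design assumed reads and the deposited unit is log2, the chi-square test used the recovered reads. The fixed-trend test set a dispersion in each of 40 bins of mean reads. Both tests and the recovery of reads were tested on simulated data. Poisson intervals are exact at 95%. Alternatives were trimmed-mean and median-of-ratios factors, totals without mitochondrial genes, a minimum mean of 100 reads, another pseudocount, a robust prior and leaving out each sample.

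Replicates were numbered in accession order, for naming alone. Some items are not reported here. Named genes are the 10 genes, the first and last of each class of the wider list by mean log2 CPM, the 3 of each class with the largest SD, and the 5 nearest patterns to the 2 genes with the largest SD. Some single genes outside this rule were named after their values were seen. They are the immune, mesangial, fibroblast and parietal epithelium markers, Bmp7, Lrrc32, Thbs1, Itgav, Mmp2 and the genes listed as not beyond counting noise. The genes and lists were chosen with earlier results of these data known.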

Additional observations from a re-analysis of the deposited data

Results flagged for a closer look

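Of 45 results examined (40 named genes and 5 differences between genes), 1 had a single sample set apart from the other three, by Dixon's ratio of its gap to the whole range at the 95% critical value. Chance alone would give 2.25, and over all genes 673, or 5.08%, met the same criterion. The gene was Smad4, with a ratio of 0.842. Its level was 61.2 CPM in replicate 2 and 68.8 to 70.3 CPM in the other samples. Smad6, whose replicate 3 was high, had a ratio of 0.779 and did not reach the critical value.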

How the results depend on the processing

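Of 348 recomputed values, 258 for single genes and 74 for counts and differences were counted as unchanged. They kept their direction and side of the threshold, or moved by less than 1 SD. Part of them had little or no room to change. Limma's trend called 0 genes under every scaling, filter and fit without a sample, and its p-values and counts are included. Differences between genes within a sample are the same under any scaling by construction. The 258 and 74 therefore overstate how far stability was tested. The number of TGF-beta genes beyond counting noise ran from 8 to 10 and that of the wider list from 61 to 69 when replicates were left out in turn, while the number of all 13261 genes ran from 7326 to 8678 against 9222 with all samples. Under limma's trend 0 of all genes were called in each of these fits, so it says nothing of stability. With all samples and the fixed dispersion trend in place of limma's, 1 TGF-beta gene, 18 of the wider list and 998 of all genes were called. That trend called 1, 1, 0 and 1 of the TGF-beta genes and 15, 6, 15 and 15 of the wider list without replicates 1, 2, 3 and 4, and 665, 711, 599 and 628 of all genes. The difference Smad7 minus Smad6, 0.05 with all samples, ran from -0.05 to 0.25 across these fits, was -0.02 without replicate 1 and -0.055 without replicate 2, and so has no stable sign. Tgfb2 minus Tgfb1 ran from -0.70 to -0.53, Tgfb3 minus Tgfb1 from -2.54 to -2.26, Tgfbr2 minus Tgfbr1 from 3.60 to 3.81 and Smad3 minus Smad2 from 0.51 to 0.60. Leaving mitochondrial genes out of the totals raised every level by construction, moving Tgfbr3 to 7.83, Smad2 to 5.54 and Smad3 to 6.11 log2 CPM. No paired analysis was possible because there is a single group. With 4 samples and no controls, no direction of response can be given.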
